A study of Mus musculus with 12 samples.

Results

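The genes described here encode the proteins of the cytosolic ribosome, and were taken as probesets that name exactly 1 gene whose symbol begins with Rpl or Rps and a number, together with *Rplp0*, *Rplp1*, *Rplp2* and *Rpsa*, with pseudogenes and the *Rps6k* kinases left out. The rule found 50 genes on 106 probesets, of 18193 genes that had a probeset of their own. Of the 106 probesets, 43 were of a shared type, marked by the suffix s_at or x_at. Such a probeset can bind other transcripts too, although it names 1 gene. Another 31 ribosomal protein symbols, among them *Rpl10*, *Rpl36a*, *Rpl36al*, *Rpl3* and *Rps27rt*, were found only on probesets that name several genes and are not described, and *Rpl10l* had no probeset of its own. One of the 50, *Rps19bp1*, encodes a protein that binds the small subunit protein RPS19 and is no ribosomal protein, but it is counted among the 50 genes and among those above background. *Fau* and *Rack1* encode ribosomal proteins under other names and fell outside the rule.

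The ribosome consists of a large and a small subunit, each built from ribosomal RNA and a fixed set of proteins. The genes for these proteins are expressed in all cells, and they are known for high and parallel expression. A few have a paralog in mammals, such as *Rpl39l* beside the X-linked *Rpl39*, *Rps4l* beside the X-linked *Rps4x*, and *Rpl22l1* beside *Rpl22*. The sex chromosomes are silenced in pachytene spermatocytes, and autosomal copies of X-linked housekeeping genes are known to be expressed in male germ cells.

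Expression was measured on 12 arrays of flow-sorted testicular cells from PWD/Ph (PWD) and C57BL/6J (B6) males. PWD is an inbred strain derived from wild mice of the musculus subspecies, and B6 is a laboratory strain. The labels give an age of 8 to 10 weeks, no treatment and no engineered allele. Each strain had 3 populations, namely prepachytene spermatocytes (up to early pachytene), pachytene spermatocytes (mid to late pachytene with diplotene) and spermatids, with 2 arrays for each of the 6 groups. The series' own description says that the duplicates came from 2 animals, but not which arrays share an animal, so that p-values measure the spread between these arrays. Values are log2 expression values of probesets, and the probeset brightest on average across the 12 arrays stood for its gene. For 16 genes of the family the brightest probeset was of the shared type. *Rpl22*, *Rpl7*, *Rps9*, *Rpl35*, *Rpl37a* and *Rpl13a* were among them, and other transcripts may add to the values of such genes. Probesets differ in how they bind, so that a level of one gene is not set against a level of another. In a sorted population, fewer cells of a type and less RNA per cell cannot be told apart.

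Replicate arrays correlated with r between 0.987 and 0.996 over all probesets. A background level of 4.31 was set at the 95th percentile of 60 probesets for genes of other organs, and 45 of the 50 genes were above it. The populations carried the markers of their labels: 14 of 15 prepachytene markers were lower and 11 of 11 pachytene markers were higher in pachytene than in prepachytene cells, and 15 of 15 spermatid markers were higher in spermatids than in pachytene cells. Prepachytene cells also carried markers of other cells. Of 11 measured spermatogonial markers, 7 were lower and 0 higher in pachytene than in prepachytene cells. On the prepachytene arrays 8 or 9 of these 11 were above background, against 1 or 2 on the pachytene arrays. Of 12 measured Sertoli cell markers, 7 were lower and 1 higher in pachytene than in prepachytene cells. *Ctsl* and *Clu* were lowest at -6.47 and -5.98 on the log2 scale, while *Amh*, *Fshr*, *Gata4* and *Wt1* were not above background. The log2 of the summed Sertoli markers was 9.29 to 9.43 in PWD pachytene and 8.89 to 9.07 in B6 pachytene arrays, against 15.05 to 15.25 in PWD and 14.57 to 14.86 in B6 prepachytene arrays. Of 15 spermatid markers, 10 were lower and 3 higher in pachytene than in prepachytene cells, with *Tnp2* and *Prm2* at -5.31 and -4.30. The 5 Leydig cell markers measured were below background on average over the 12 arrays, and 1 of them was above it on both B6 prepachytene arrays and 1 on both PWD spermatid arrays. The part of these cells in the results below was not tested.

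The sequences shown first are the promoters of *Rpl39l*, *Rpl22l1* and *Rpl22*, because these 3 genes carry the contrast between a paralog that rose and a somatic form that fell. They are the reference sequence (RefSeq, GRCm38.p6) and not that of PWD. Each line holds 180 bases before the annotated start and 20 bases from the start on, with matches in capitals to any of 4 short motifs searched on both strands. The motifs were the cyclic AMP response element (TGACGTCA) and the cores of sites for YY1 (AAGATGGC), GABPA (CCGGAAG) and the TATA box (TATAAA). The stretches lie at chr16:10170048-10170247, chr3:28805328-28805527 and chr4:152324256-152324455, all on the plus strand.
Rpl39l: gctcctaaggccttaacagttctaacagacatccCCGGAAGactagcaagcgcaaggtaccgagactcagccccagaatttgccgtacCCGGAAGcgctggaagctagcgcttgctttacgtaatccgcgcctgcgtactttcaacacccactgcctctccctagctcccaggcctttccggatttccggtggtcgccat
Rpl22l1: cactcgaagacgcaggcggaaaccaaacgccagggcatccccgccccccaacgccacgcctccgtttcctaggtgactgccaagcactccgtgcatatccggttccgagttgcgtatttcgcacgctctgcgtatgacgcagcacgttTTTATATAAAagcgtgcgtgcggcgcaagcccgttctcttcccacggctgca
Rpl22: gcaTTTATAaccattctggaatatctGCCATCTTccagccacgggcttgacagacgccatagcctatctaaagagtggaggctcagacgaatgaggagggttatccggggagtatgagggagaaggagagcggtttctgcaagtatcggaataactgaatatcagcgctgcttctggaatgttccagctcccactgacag

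*Rpl39l* held the GABPA core at positions -146 and -92, counted back from the annotated start, and *Rpl22l1* held overlapping TATA box matches of both strands at -28 and -32. *Rpl22* held a YY1 core at -154 and a TATA box match at -177, both on the minus strand, and its second annotated start further downstream had none of the 4 motifs. Of the 50 genes, 44 had a window in the reference, with 52 windows of 300 bases in all. The GABPA core was in 21 of these 52 windows (40.4%), compared with 8.86% of the 32851 windows of all genes. The other motifs were in 4 windows for YY1 (7.69%, compared with 2.75%), 2 for the cyclic AMP response element (3.85%, compared with 1.79%) and 6 for the TATA box (11.5%, compared with 13.6%). Messages of ribosomal protein genes are known to begin with a C and a run of pyrimidines, and a C followed by 4 pyrimidines stood exactly at the annotated start in 8 of the 52 windows (15.4%), compared with 2.51% of all windows. This last count was added after the others had been seen.

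The question of the first comparison was how the genes changed between populations. Most ribosomal protein genes were highest in prepachytene cells and lower in pachytene cells in both strains, while the further difference into spermatids passed in fewer genes. The median of the 45 genes above background was 14.52 in prepachytene cells, 12.85 in pachytene cells and 12.38 in spermatids of PWD, and it was 14.04, 12.44 and 12.32 in the same order in B6. Of the 45 genes, 41 were highest in prepachytene cells and 34 were lowest in spermatids in both strains alike. *Rpl39l* and *Rpl22l1* went against this, being lowest in prepachytene cells in both strains.

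**Figure D1:**
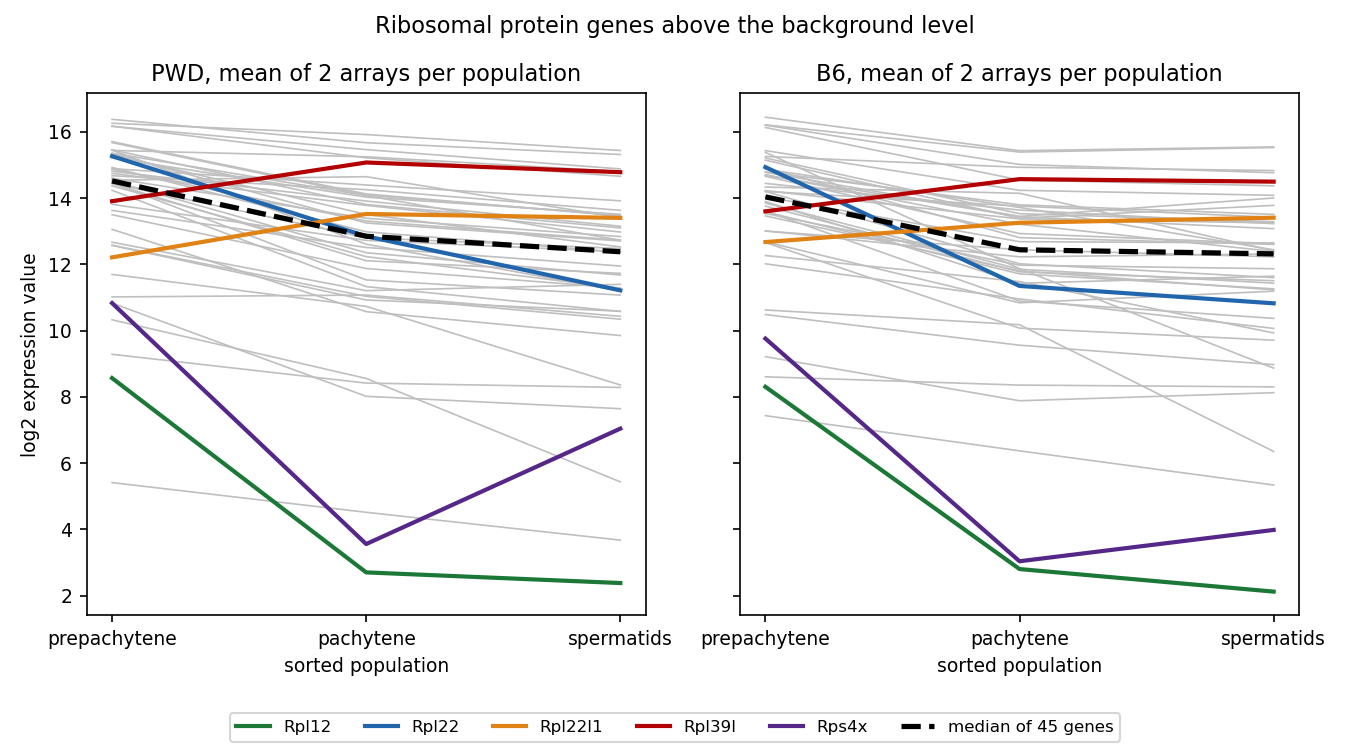
Log2 expression value (vertical axis) of the 45 genes above background, *Rps19bp1* among them, in the 3 sorted populations (horizontal axis) of PWD (left) and B6 (right), each line a gene and each value a mean of 2 arrays. The dashed median falls to 12.38 in PWD spermatids, and *Rpl39l* and *Rpl22l1* run upward where *Rpl22*, *Rpl12* and *Rps4x* run downward into pachytene cells.

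In pachytene against prepachytene cells, over both strains, 42 of the 50 genes were lower and 3 were higher at an adjusted p under 0.05 (limma, Benjamini-Hochberg over all probesets), compared with 28.4% lower and 43.7% higher among all 18193 genes. Of the 45 genes above background, 91.1% were lower and 4.44% higher, compared with 41.3% and 40.7% of the 10186 genes above background. *Rps19bp1* is among those lower (-0.71, adjusted p = 0.00279). The median log2 difference of the 45 genes above background was -1.39, while that of all genes above background was 0.01. The median was -1.39 over 23 large subunit genes and -1.43 over 21 small subunit genes. The fall was seen in each strain, with 36 of the 45 genes lower in PWD (median -1.54) and 37 lower in B6 (median -1.33), compared with 37.3% and 37.2% of all genes above background. For 35 of the 45 genes no pachytene array reached any prepachytene array, compared with 32.9% of all genes above background. The size of the fall differed widely between genes.

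**Figure D2:**
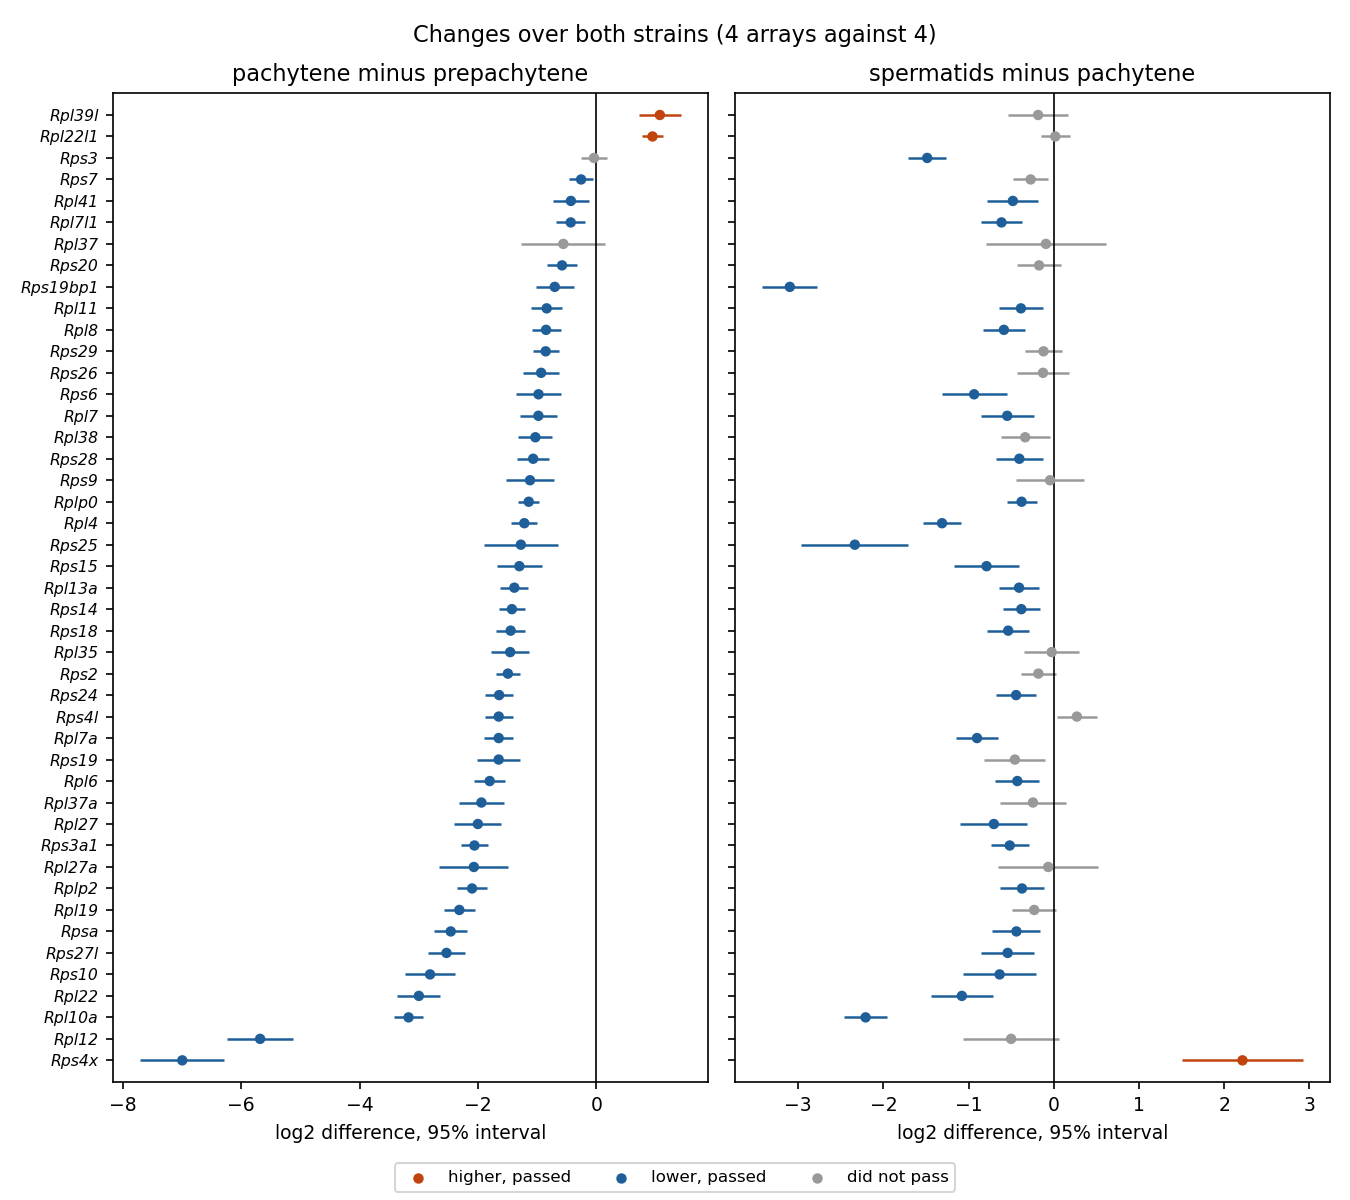
Log2 difference with its 95% interval (horizontal axis) for each of the 45 genes above background (vertical axis), pachytene minus prepachytene on the left and spermatids minus pachytene on the right, 4 arrays against 4 over both strains. On the left 41 genes pass as lower and 2 as higher, and on the right 27 pass as lower and 1 as higher.

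*Rps4x*, the X-linked gene of small subunit protein eS4 (chrX:102184941-102189391), had the most negative fitted difference. Its log2 values were 3.52 and 3.59 in PWD and 3.47 and 2.61 in B6 pachytene cells, against 10.41 and 11.25 in PWD and 9.73 and 9.78 in B6 prepachytene cells. All pachytene values lay below background and all prepachytene values above it. The log2 difference was -7.00 ± 0.31 (SE), with an adjusted p of 3.55e-07. Its size rests on values below background, and with those set to the background level *Rps4x* was at least 63.4-fold lower in pachytene cells. Among the 279 X-linked genes above background, 212 were lower in pachytene cells with a median of -4.05, whereas 3986 of 9855 autosomal genes were lower with a median of 0.05. The only other X-linked gene of the family with a probeset of its own, *Rpl39*, stayed between 2.79 and 3.2 on all 12 arrays, so that its level was not measured.

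*Rpl12*, which encodes uL11 of the large subunit, had a fitted difference of -5.68 ± 0.24 with an adjusted p of 3.09e-07. Its values were 2.71 and 2.70 in PWD and 2.62 and 2.99 in B6 pachytene cells, against 9.01 and 8.12 in PWD and 8.02 and 8.58 in B6 prepachytene cells. Like *Rps4x*, it was below background in every pachytene array, and it was at least 17.5-fold lower on the same reckoning. *Rpl10a*, the gene of uL1, remained far above background while it fell by 3.17 on the log2 scale (SE 0.11, adjusted p = 9.66e-08). It had 12.45 and 12.76 in PWD and 11.86 and 11.88 in B6 pachytene cells, against 15.39 and 15.50 in PWD and 15.39 and 15.37 in B6 prepachytene cells. *Rpl22* fell by 3.00 and *Rps10*, a small subunit gene, fell by 2.81 (adjusted p = 9.58e-07 and 3.78e-06). The other genes that were lower ranged from -2.53 for *Rps27l* to -0.26 for *Rps7*.

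A few genes did not take part in the fall. *Rps3*, whose product lies at the entry of messenger RNA into the small subunit, had 14.61 and 14.69 in PWD and 14.27 and 14.02 in B6 pachytene cells, against 14.45 and 14.63 in PWD and 14.38 and 14.28 in B6 prepachytene cells. The groups overlapped, and the difference was -0.04 with an adjusted p of 0.706. A second probeset of *Rps3*, which was below background in all spermatid arrays and in PWD pachytene arrays, gave -4.39 with an adjusted p of 1.43e-05, so that the 2 probesets of this gene do not give the same account. *Rpl37* had -0.56 with an adjusted p of 0.134. *Rps16* counted as higher by 0.06, but all its values lay between 1.96 and 2.08 and so below background.

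The genes above background that rose were the paralogs *Rpl39l* and *Rpl22l1*. *Rpl39l*, the autosomal paralog of *Rpl39* (chr16:10170197-10174911), had 15.10 and 15.05 in PWD and 14.66 and 14.48 in B6 pachytene cells, against 14.24 and 13.57 in PWD and 13.73 and 13.47 in B6 prepachytene cells. The lowest pachytene array stood above the highest prepachytene array. The log2 difference was 1.07 ± 0.15, a 2.10-fold rise with an adjusted p of 0.000462, and it was 1.17 within PWD and 0.97 within B6. *Rpl22l1* (chr3:28805508-28807424) had 13.54 and 13.49 in PWD and 13.30 and 13.21 in B6 pachytene cells, against 12.32 and 12.10 in PWD and 12.70 and 12.64 in B6 prepachytene cells. These groups did not overlap either, and the rise was 0.95 ± 0.07 (adjusted p = 1.02e-05).

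Into spermatids the fall went on in a smaller number of genes. Of the 50 genes, 27 were lower and 1 was higher in spermatids than in pachytene cells, compared with 23.8% lower and 18.2% higher among all genes. All 28 were above background, where 40.2% of all genes were lower and 25.7% higher. The median of the 45 genes above background was -0.43, and that of all genes above background was -0.23. Centring each array on its probesets above background added 0.24 to every difference of this comparison, and then 17 were lower and 6 were higher. The median of the 45 genes above background was then -0.19, and that of all genes above background was 0.01. Without replicate 2 of PWD pachytene, 16 were lower. In PWD 26 of the 45 genes were lower, more than the share of 35.9% among all genes above background. In B6 9 of the 45 were lower, less than the share of 30.6% among all genes above background. The difference between the strains was tested gene by gene below.

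*Rps19bp1*, the binding partner of RPS19, changed most, with 8.31 and 8.41 in PWD and 6.53 and 6.18 in B6 spermatids, against 10.46 and 11.01 in PWD and 10.14 and 10.21 in B6 pachytene cells. Its difference was -3.10 ± 0.14 with an adjusted p of 2.40e-06. *Rpl10a* fell again, by 2.21 on the log2 scale (SE 0.11), to 11.04 and 11.34 in PWD and 8.72 and 9.01 in B6 spermatids. *Rps25* fell by 2.34 (SE 0.27), and its arrays overlapped between populations because the strains differed. *Rps3* fell by 1.49 and *Rpl4* by 1.31, without overlap. The arrays of *Rps3* were 13.26 and 13.56 in PWD and 12.32 and 12.50 in B6 spermatids.

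The gene that rose was *Rps4x*, by 2.21 ± 0.31 (adjusted p = 0.000617). It had 6.60 and 7.48 in PWD and 4.32 and 3.65 in B6 spermatids, against the pachytene values given above, which were all lower. Among X-linked genes above background, 184 of 279 were higher in spermatids with a median of 2.39. Within PWD the rise of *Rps4x* was 3.48 with an adjusted p of 0.000649, and within B6 it was 0.95 with an adjusted p of 0.144. The difference between the 2 rises was 2.54 ± 0.61, and its adjusted p of 0.0676 did not pass. *Rpl39l* and *Rpl22l1* showed differences of -0.18 and 0.02 into spermatids, with adjusted p of 0.514 and 0.979, and *Rpl22l1* passed as 0.26 higher with each array centred as above (adjusted p = 0.0203).

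In spermatids against prepachytene cells, 43 of the 50 genes were lower and 4 were higher, compared with 31.6% lower and 48.9% higher among all genes. Above background, 42 of the 45 genes were lower and 2 higher, compared with 47.1% and 41.4%. The median of the 45 genes above background was -1.91, against -0.20 for all genes above background. *Rpl12* fell by 6.18, *Rpl10a* by 5.38, *Rps4x* by 4.78, *Rpl22* by 4.08 and *Rps19bp1* by 3.80 on the log2 scale, where *Rpl12* was below background on all spermatid arrays. *Rpl22l1* was 0.96 higher and *Rpl39l* 0.89 higher (adjusted p = 6.70e-06 and 0.00114). The other 2 higher genes, *Rpl39* and *Rps16*, were below background.

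Paralogs were then set against their somatic forms. The measure was the log2 value of the paralog minus that of the somatic form on the same array, in which any shift of a whole array cancels, and only changes of this difference between populations were read. Of 9 pairs, 3 had both forms above background. *Rpl39l* and *Rps27l* could not be compared because the probesets of *Rpl39* and *Rps27* were below background, *Rpl3l* was itself below background, and the other pairs lacked a probeset of their own. The 9 changes were tested by an exact two-sided permutation test of 4 arrays against 4, which cannot give a p below 0.0286, and the adjusted p for a change that reached it was 0.0514 over the 9 tests.

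**Figure D3:**
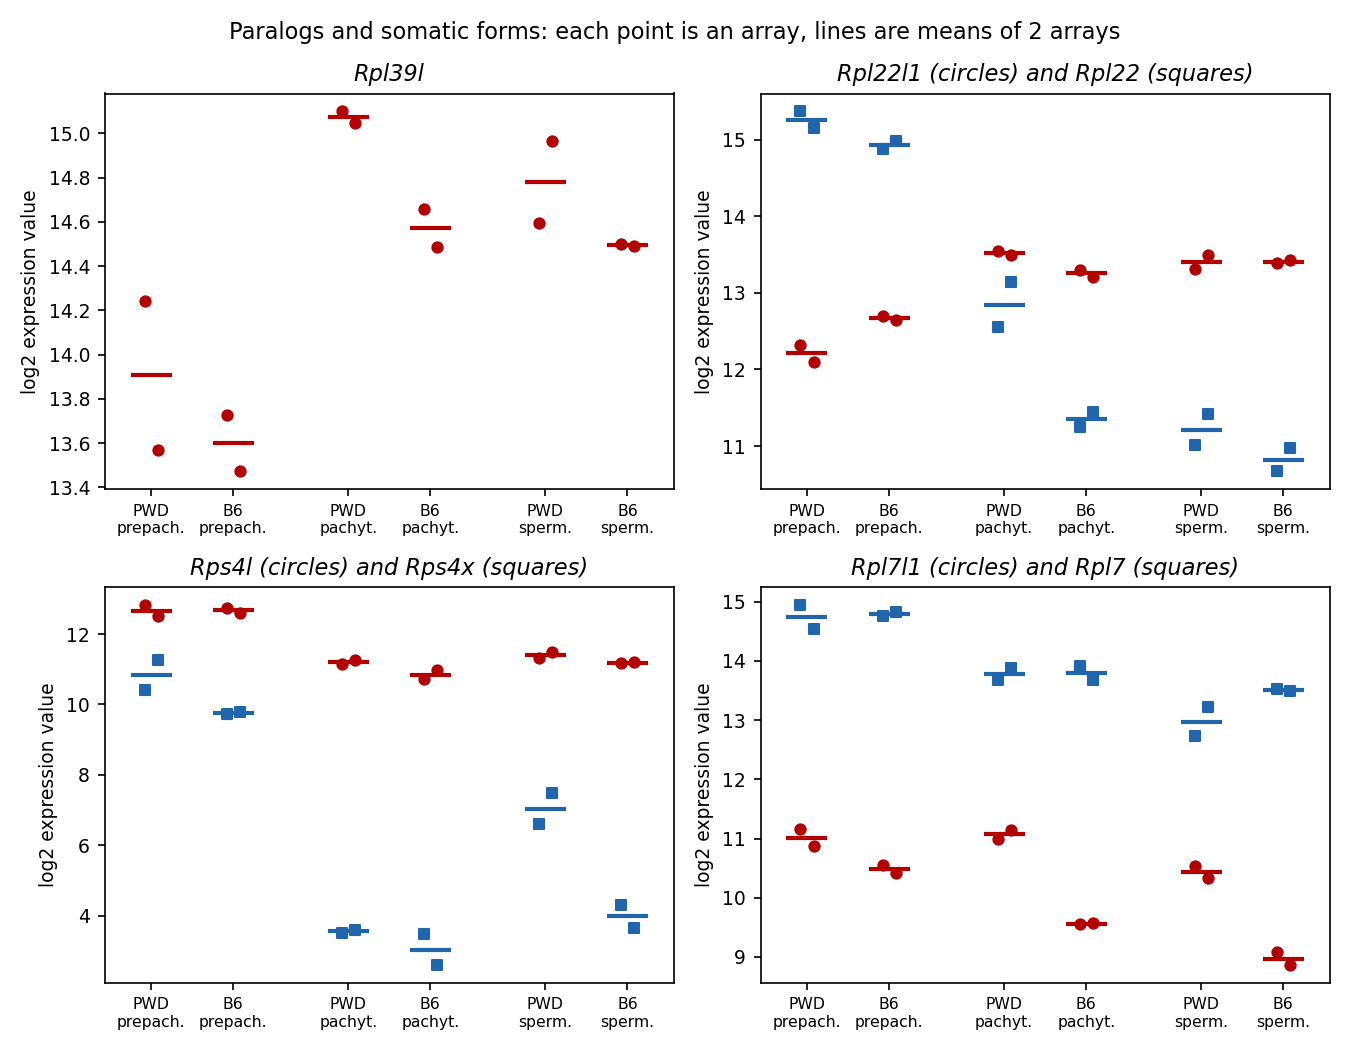
Log2 expression value (vertical axis) on each array, by strain and sorted population (horizontal axis), for *Rpl39l* alone and for the pairs *Rpl22l1* and *Rpl22*, *Rps4l* and *Rps4x*, and *Rpl7l1* and *Rpl7*, with lines at the mean of 2 arrays. The vertical scale differs between panels, and *Rpl22l1* is higher in all pachytene than in all prepachytene arrays where *Rpl22* is lower, while *Rps4l* and *Rps4x* are both lower.

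The pair of *Rpl22l1* and *Rpl22* moved apart in opposite directions. Both encode forms of eL22 of the large subunit, and either can be built into the ribosome. *Rpl22* had 12.56 and 13.14 in PWD and 11.25 and 11.44 in B6 pachytene cells, against 15.37 and 15.16 in PWD and 14.88 and 14.99 in B6 prepachytene cells. The paralog minus the somatic form averaged 1.29 in pachytene cells and -2.66 in prepachytene cells (n = 4 each), a change of 3.95 with no overlap (exact permutation p = 0.0286). It averaged 2.39 in spermatids and 1.29 in pachytene cells, a change of 1.10 that reached the same p. All 3 probesets of *Rpl22* above background were lower in pachytene cells, by values between -4.51 and -2.66.

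The pair of *Rps4l* and *Rps4x* changed without a rise of the paralog. *Rps4l* (chr6:148354656-148355596) had 11.14 and 11.27 in PWD and 10.71 and 10.97 in B6 pachytene cells, against 12.83 and 12.51 in PWD and 12.75 and 12.61 in B6 prepachytene cells, a fall by 1.65 (SE 0.10, adjusted p = 2.68e-06). Since *Rps4x* fell further, the paralog minus the somatic form averaged 7.72 in pachytene cells and 2.38 in prepachytene cells (n = 4 each), a change of 5.35 (exact permutation p = 0.0286). As *Rps4x* was below background in pachytene cells, the size of this change is uncertain. In spermatids the difference averaged 5.78, with a range of 3.99 to 7.56 that crossed the pachytene range of 7.24 to 8.36 (exact permutation p = 0.0571).

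The pair of *Rpl7l1* and *Rpl7* showed changes of 0.55, -0.07 and 0.48 in the 3 comparisons, with exact permutation p between 0.314 and 0.857, and all ranges overlapped. *Rpl7l1* encodes a protein related to uL30 that is known for ribosome assembly. Its brightest probeset fell by 0.43 in pachytene cells (adjusted p = 0.00746), with 0.056 within PWD (adjusted p = 0.756) and -0.93 within B6 (adjusted p = 0.00126). This call was lost with each array centred on its probesets above background (-0.041, adjusted p = 0.772) and after another quantile normalization (-0.31, adjusted p = 0.0736). By contrast, a second probeset above background fell by 3.26 (adjusted p = 1.00e-05) and by a further 3.24 in spermatids. *Rps27l*, a paralog of *Rps27*, fell by 2.53 in pachytene cells and by a further 0.54 in spermatids, with adjusted p of 9.63e-07 and 0.0143, and the second call was lost when arrays were centred (-0.30, adjusted p = 0.0586) or without replicate 2 of PWD pachytene (-0.47, adjusted p = 0.0523).

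The second question was whether PWD and B6 differed. Genes that passed were found in both directions, with *Rps25* and *Rps6* lower in PWD throughout and *Rpl7l1*, *Rps3a1* and *Rplp0* among those higher. In prepachytene cells 14 of the 50 genes were higher and 5 were lower in PWD, compared with 16.6% higher and 5.88% lower among all genes. In pachytene cells 9 were higher and 3 lower, compared with 12.1% and 5.05%, and in spermatids 7 were higher and 3 lower, compared with 9.56% and 7.54%. Of the 45 genes above background, 13 were higher and 4 lower in prepachytene cells, compared with 24.4% and 8.39% of all genes above background. In pachytene cells 9 of the 45 were higher and 3 lower, compared with 19.6% and 6.86%, and in spermatids 7 were higher and 3 lower, compared with 14.6% and 9.5%. Without centring, these shares lay near those of all genes above background. The median difference of the 45 genes above background was 0.38, 0.37 and 0.03 in the 3 populations, while that of all genes above background was 0.30, 0.32 and 0.08. Centring each array on its probesets above background lowered every strain difference by 0.28, 0.23 and 0.09 in this order, and then 8 were higher and 9 lower in prepachytene cells, 7 higher and 4 lower in pachytene cells, and 7 higher and 6 lower in spermatids. After another quantile normalization, 5 were higher and 9 lower in pachytene cells, and 7 higher and 5 lower in spermatids. Shares of all genes under these 2 settings are not given. After centring, the medians were 0.10, 0.14 and -0.05 for the 45 genes, and 0.02, 0.09 and -0.01 for all genes above background. After the other normalization they were 0.20, -0.08 and 0.06 for the 45 genes, and 0.09, 0.07 and 0.06 for all genes above background. Without either B6 prepachytene array, 2 genes were higher and 2 lower in prepachytene cells, and without either B6 pachytene array or replicate 2 of PWD pachytene 5 were higher in pachytene cells. Of the 12 Sertoli markers, 3 were higher and 1 was lower in PWD prepachytene cells. Of the 8 Sertoli markers above background, 3 were higher and 1 lower, compared with 24.4% and 8.39% of all genes above background. *Vim* was higher by 2.54, *Rhox5* by 2.16 and *Cldn11* by 1.95. Of 15 spermatid markers, 4 were higher and 0 lower in the same cells, with *Tnp2* at 1.74 and *Prm2* at 1.72. This share lay near the 24.4% higher among all genes above background. In PWD pachytene cells 7 of 15 prepachytene markers were higher and 0 lower, compared with 19.6% and 6.86% of all genes above background. In PWD spermatids 3 of 12 Sertoli markers were higher and 0 lower, and 4 of 15 spermatid markers were lower and 0 higher. The 3 Sertoli markers were among the 8 above background. Of all genes above background, 14.6% were higher and 9.5% lower in PWD spermatids. The part of these in the strain counts was not tested. Where the PWD sequence departs from the probe, binding can be weaker, and the part of this was not tested.

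**Figure D4:**
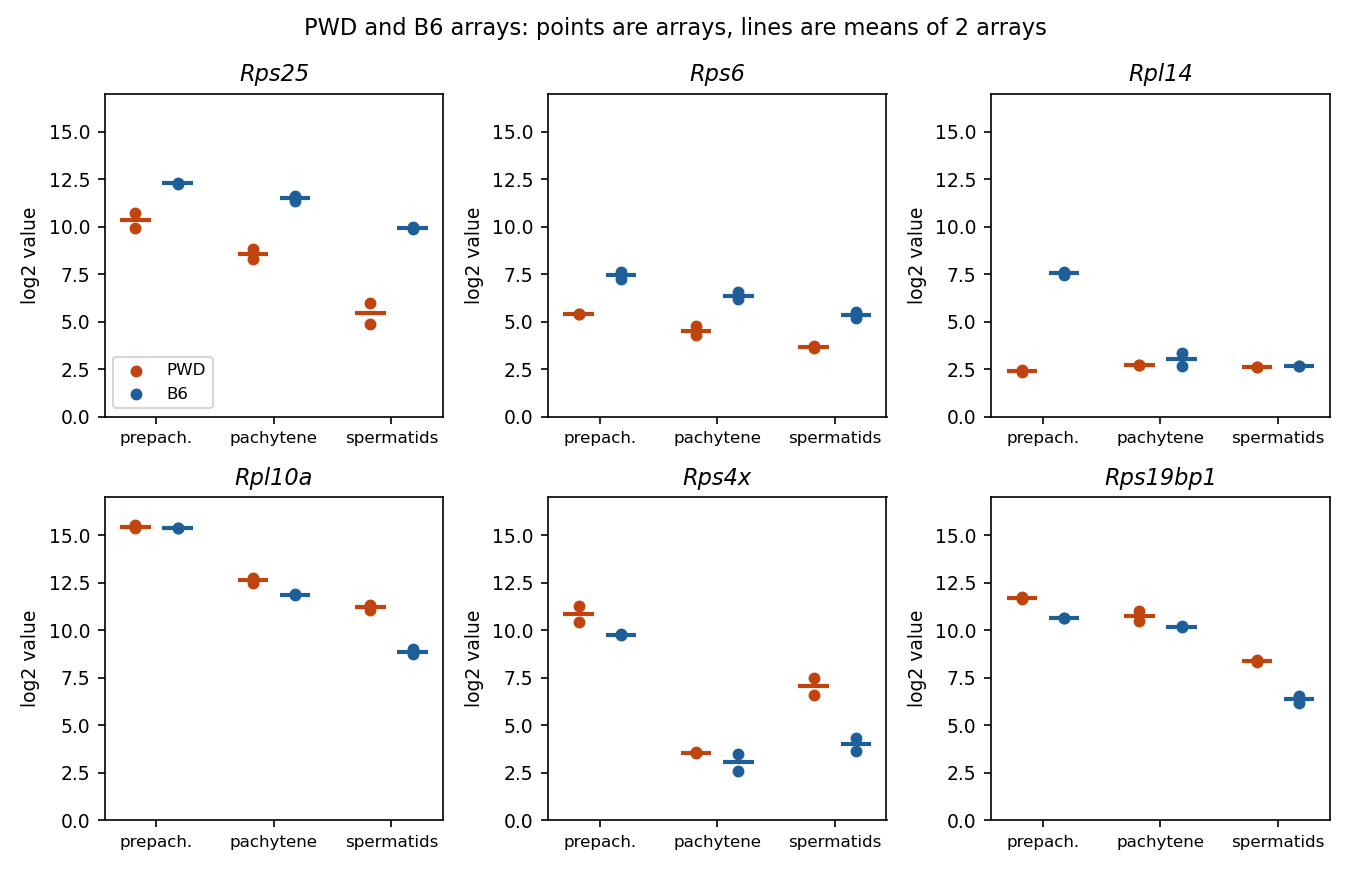
Log2 expression value (vertical axis) on each array of PWD and B6 in the 3 sorted populations (horizontal axis) for 6 genes of the family that differed between the strains, with lines at the mean of 2 arrays. *Rps25* and *Rps6* are lower in PWD in all 3 populations, *Rpl14* in prepachytene cells, and *Rpl10a*, *Rps4x* and *Rps19bp1* are higher in PWD spermatids.

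*Rps25* and *Rps6*, both of the small subunit, were lower in PWD in every population. *Rps25* had 10.71 and 9.94 in PWD and 12.29 and 12.24 in B6 prepachytene cells, 8.29 and 8.82 in PWD and 11.36 and 11.60 in B6 pachytene cells, and 5.98 and 4.89 in PWD and 9.86 and 10.00 in B6 spermatids. No PWD array reached a B6 array of the same population. The differences were -1.94, -2.92 and -4.49 with an SE of 0.38 each, in the order of the populations, with adjusted p of 0.0101, 0.00213 and 0.000171. The prepachytene call of *Rps25* was lost without either B6 prepachytene array or replicate 2 of PWD prepachytene (-1.97 to -1.55, adjusted p between 0.0510 and 0.0537). *Rps6*, whose product is the target of the *Rps6k* kinases, showed -2.02, -1.86 and -1.66 in the same order with an SE of 0.23 each, and its PWD values in spermatids, 3.63 and 3.72, were below background. *Rps19* was lower in PWD in prepachytene cells by -0.89 and in pachytene cells by -0.88 (adjusted p = 0.0254 and 0.0369). The prepachytene call of *Rps19* was lost without any 1 of the 4 prepachytene arrays (-0.95 to -0.83). Its pachytene call was lost without replicate 2 of B6 pachytene (-0.59, adjusted p = 0.200), without replicate 1 of PWD pachytene (-0.66, adjusted p = 0.139), without any 1 of the B6 prepachytene or B6 spermatid arrays, and with only the arrays compared (adjusted p = 0.115).

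*Rpl14* was measured above background only in B6 prepachytene cells. It had 2.48 and 2.37 in PWD and 7.47 and 7.60 in B6 prepachytene cells, a difference of -5.11 ± 0.20 with an adjusted p of 2.72e-06, and between 2.62 and 3.35 in all other arrays. As the PWD values were below background, the size of this difference is uncertain, and *Rpl14* was at least 9.35-fold lower in PWD with those values set to the background level. A probeset of *Rpl7l1* that was not above background on average had 2.28 and 2.25 in PWD and 8.58 and 8.20 in B6 prepachytene cells, and 2.34 and 2.36 in PWD and 7.09 and 7.19 in B6 pachytene cells, while the brightest probeset of the same gene was higher in PWD. This probeset was singled out after its values were seen.

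*Rpl7l1* by its brightest probeset was 1.51 higher in PWD in pachytene cells and 1.46 higher in spermatids (SE 0.15, adjusted p = 0.000507 and 0.000468). It had 10.99 and 11.15 in PWD and 9.55 and 9.57 in B6 pachytene cells. *Rpl22* was 1.50 ± 0.22 higher in PWD pachytene cells (adjusted p = 0.00384), with the values given above. In the same cells *Rps9* was 1.00 higher and *Rpl19* 0.92 higher (adjusted p = 0.0343 and 0.00766). The call of *Rps9* was lost in 11 of 20 other settings, and that of *Rpl19* in 1. *Rps3a1*, which encodes eS1, was higher in PWD in all 3 populations, by 0.73, 0.97 and 0.76, and *Rplp0*, a part of the stalk of the large subunit, was higher in pachytene cells by 0.92 and in spermatids by 0.51. In prepachytene cells the highest differences were those of *Rpl27a* (1.62), *Rps19bp1* (1.07), *Rpl37a* (0.90), *Rpl35* (0.89) and *Rps26* (0.80). Of these, the calls of *Rpl27a*, *Rpl37a*, *Rpl35* and *Rps26* were lost without replicate 1 of PWD prepachytene, where their differences were between 0.64 and 1.10. Over 20 other settings the call was lost in 10 for *Rpl37a*, in 5 each for *Rpl27a*, *Rpl35* and *Rps26*, and in 0 for *Rps19bp1*. With only the arrays compared, *Rpl27a* and *Rpl37a* had adjusted p of 0.0769 and 0.0578. The brightest probeset of *Rpl37a* not of a shared type gave 0.61 (adjusted p = 0.269).

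In spermatids, *Rps4x* was 3.06 ± 0.43 higher in PWD (adjusted p = 0.00255), *Rpl10a* 2.32 ± 0.15 (adjusted p = 3.71e-05) and *Rps19bp1* 2.01 ± 0.20 (adjusted p = 0.000365). *Rps3* by its brightest probeset was 1.00 ± 0.14 higher (adjusted p = 0.00203), a call lost in 1 of 20 other settings. The *Rps4x* values stood at 6.60 and 7.48 in PWD, all above background, against 4.32 and 3.65 in B6, around it. The 279 X-linked genes above background had a median strain difference of -0.06 in spermatids, with 11 higher in PWD. With only the arrays compared, the calls of *Rps4x* in spermatids and of *Rpl22*, *Rps3a1* and *Rps6* in pachytene cells were lost, with adjusted p between 0.0532 and 0.0658. *Rpl13a* was lower in PWD spermatids by -0.62 with its brightest probeset, a call lost without any 1 of 5 arrays (-0.72 to -0.41), but another of its probesets was higher by 1.42 (adjusted p = 0.0135), and *Rps3* in pachytene cells likewise had 1 probeset higher by 0.50 and 1 lower by -2.26. These were the only genes of the 20 with several probesets above background whose probesets passed in opposite directions. Neither *Rpl39l* nor *Rps4l* passed in any strain comparison, and *Rpl22l1* passed only in prepachytene cells, where it was lower in PWD by -0.46 (adjusted p = 0.0173). That call was lost with only the arrays compared (adjusted p = 0.135), without either B6 prepachytene array (adjusted p = 0.0857 and 0.0607) and without replicate 2 of PWD prepachytene (-0.35, adjusted p = 0.0679).

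The change between populations was then compared between the strains. Of the 50 genes, 5 differed in the change into pachytene, compared with 13.6% of all genes, and 2 in the change into spermatids, compared with 4.66%. Neither share of the 50 was above that of all genes. Of the 45 genes above background, 3 had a positive and 1 a negative difference (PWD minus B6) into pachytene, compared with 8.94% and 8.4% of all genes above background. Into spermatids 2 were positive and 0 negative, compared with 1.71% and 2.3%. The rise of *Rpl22l1* was larger in PWD, with 1.31 in PWD and 0.58 in B6, and this difference of 0.73 passed (adjusted p = 0.0177). The fall of *Rplp0* was -0.70 in PWD and -1.59 in B6, and that of *Rpsa*, a small subunit gene also known as the laminin receptor, was -2.93 in PWD and -2.0 in B6. The others were *Rpl7l1* (0.98) and *Rpl14* (4.80, with PWD below background in all populations). The fall of *Rpl10a* into spermatids was -1.42 in PWD and -3.00 in B6, a difference of 1.59 ± 0.21 with an adjusted p of 0.00653, and that of *Rps19bp1* differed by 1.45 (adjusted p = 0.0308). Without replicate 2 of B6 pachytene, 2 genes differed in the change into pachytene, and 1 differed in the change into spermatids.

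Other genes of ribosome production and translation were counted by lists, and almost all of them were above background. Among all genes above background, 41.3% were lower and 40.7% higher in pachytene than in prepachytene cells. In spermatids against pachytene cells, 40.2% of them were lower and 25.7% higher. Of 52 genes of ribosome biogenesis, which make and modify ribosomal RNA and assemble the subunits, 36 were lower and 11 higher in pachytene than in prepachytene cells, and 32 were lower and 4 higher in spermatids than in pachytene cells. The nucleolar genes *Ncl* (-6.31), *Nop56* (-5.59), *Rcl1* (-4.94) and *Ddx10* (-4.22) had the lowest differences into pachytene. Of 76 genes of mitochondrial ribosomal proteins, 42 were lower and 16 higher in pachytene cells (median -0.57 over 75 above background), and 48 were lower and 5 higher in spermatids (median -0.61). Their median into pachytene was less negative than the -1.39 of the cytosolic genes, and this difference of medians was not tested. Of 13 elongation and termination factor genes, 8 were lower and 2 higher in pachytene cells. Of 31 initiation factor genes, 13 were lower and 7 higher in pachytene cells. Above background 12 of 29 were lower, near the share of all genes above background, and 6 were higher. The largest differences were those of the X-linked *Eif2s3x* at -4.92 and the Y-linked *Eif2s3y* at -4.33 and, upward, *Pabpc2* at 4.52 and *Eif5* at 1.02. *Fau*, which encodes a small subunit protein outside the rule, fell by 0.61 on the log2 scale in pachytene cells (adjusted p = 0.00152).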

How the data were processed

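The 12 arrays (Affymetrix mouse expression arrays, 6 groups of 2) were used as deposited log2 values, which the authors made with GCRMA per the labels, so that background correction and quantile normalization preceded every step here. No reads or counts exist, and the number of arrays limits the precision. Of 45101 probesets, 64 controls were left out and 45037 tested. Probeset names came from GEO's platform annotation with symbols updated by the RefSeq table, giving 34945 probesets with 1 gene, 932 with several and 9160 without a name. A model of 6 group means was fitted in limma 3.58.1 (R 4.3.3) with a variance trend, and p-values were adjusted by Benjamini-Hochberg over all probesets in each comparison at a threshold of 0.05. No filter on low values was applied. The fit was tested on simulated data. Named genes were the measured pairs, X-linked members, members below background, members with disagreeing probesets, the 5 highest and 5 lowest that passed in each comparison, and up to 4 genes of each other list. The members and lists were chosen with earlier results of these data known. Same-numbered arrays correlated between -0.24 and 0.08 in their deviations, so that numbers were not taken as pairs. Alternatives were another normalization or scaling, filters, other probesets, thresholds and leaving out arrays.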

Additional observations from a re-analysis of the deposited data

Results flagged for a closer look

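Of the 50 genes taken for the cytosolic ribosome, 7 differed between PWD and B6 in their change between populations by the interaction term of the limma fit, each taken as the change in PWD minus the change in B6 on the log2 scale. They were 5 of 50 into pachytene, compared with 13.6% of all genes, and 2 of 50 into spermatids, compared with 4.66%. Neither share of the 50 was above that of all genes. Above background, 2 of 45 had a positive and 0 a negative difference into spermatids, compared with 1.71% and 2.3% of all genes above background. Into pachytene these differences were 4.80 for *Rpl14*, 0.98 for *Rpl7l1*, 0.88 for *Rplp0*, 0.73 for *Rpl22l1* and -0.93 for *Rpsa*. *Rpl14* was below background in every group except B6 prepachytene cells, so that the size of its difference is uncertain. Into spermatids they were 1.59 for *Rpl10a* and 1.45 for *Rps19bp1*, which is no ribosomal protein gene. Groups of 2 arrays were too small to look for single arrays that stood apart.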

How the results depend on the processing

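Each group had 2 arrays, and sequence differences of PWD under probes were not examined. Counts below are of the 50 genes, against 3 higher and 42 lower in pachytene than in prepachytene cells, 1 and 27 in spermatids than in pachytene cells, 4 and 43 in spermatids than in prepachytene cells, 14 and 5 in PWD than in B6 prepachytene cells, 9 and 3 in pachytene cells, 7 and 3 in spermatids, and 5 and 2 strain differences of the change into pachytene and into spermatids. Shares of all genes under these settings are not given. The cause of a change was not tested.

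Centred on probesets above background, 6 were higher in pachytene than in prepachytene cells, 6 higher and 17 lower in spermatids than in pachytene cells, 8 higher and 9 lower in PWD prepachytene cells, and 6 lower in PWD spermatids, with 8 and 5 strain differences of change. Quantile normalized again, 2 were higher in spermatids than in pachytene cells, 5 higher and 9 lower in PWD pachytene cells and 5 lower in PWD spermatids, with 11 strain differences into pachytene. With only the arrays compared, 8, 3 and 3 were higher in PWD in the 3 populations, 1 was lower in PWD pachytene cells, and 3 differed in the change into pachytene. With only probesets above background, 2 were higher in spermatids than in prepachytene cells and 4 differed in the change into spermatids. At an adjusted p under 0.01, 14 were lower in spermatids than in pachytene cells, 2 higher and 2 lower in PWD prepachytene cells, 5 higher in PWD pachytene cells, and 2 and 1 differed in the changes.

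With the replicate number as a block, 3 and 1 differed in the changes into pachytene and spermatids. It is not given whether the numbers pair the samples, so these are shown only for completeness. In the same block, taken over its 4 sets of pairs, *Rps4l* minus *Rps4x* changed by 4.22 to 6.42 into pachytene, by -3.69 to -0.39 into spermatids and by 2.30 to 4.74 in spermatids against prepachytene cells. *Rpl22l1* minus *Rpl22* changed by 3.41 to 4.23, 0.67 to 1.72 and 4.80 to 5.35 in the same order in the block, and *Rpl7l1* minus *Rpl7* by -0.17 to 1.10, -0.52 to 0.49 and -0.24 to 1.59. Within PWD and within B6, *Rps4l* minus *Rps4x* changed by -3.29 and -0.59 into spermatids, and by 2.52 and 4.29 in spermatids against prepachytene cells. *Rpl22l1* minus *Rpl22* changed by 1.52 and 0.68 into spermatids. *Rpl7l1* minus *Rpl7* changed by 1.02 and 0.071 into pachytene, and by 1.19 and -0.23 in spermatids against prepachytene cells.

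Leaving out each array in turn gave 3 to 4 higher and 40 to 44 lower in pachytene cells, 1 higher and 16 to 33 lower in spermatids than in pachytene cells, and 3 to 4 higher and 43 to 45 lower in spermatids than in prepachytene cells. In PWD it gave 2 to 16 higher and 2 to 5 lower in prepachytene cells, 5 to 13 and 2 to 4 in pachytene cells, and 5 to 7 and 2 to 5 in spermatids, with 2 to 6 and 1 to 4 strain differences of change. Higher genes in PWD prepachytene cells numbered 6 without replicate 1 of PWD prepachytene and 8 without any 1 of the B6 pachytene or B6 spermatid arrays, and lower genes numbered 2 without replicate 2 of PWD prepachytene. Without replicate 2 of PWD spermatids, 5 were lower in PWD spermatids and 4 differed in the change into spermatids. Strain differences into pachytene numbered 3 without replicate 1 of B6 pachytene or of B6 prepachytene. Those into spermatids numbered 1 without either B6 pachytene array, either B6 prepachytene array, replicate 2 of B6 spermatids or replicate 1 of PWD spermatids. For the pairs it gave 4.97 to 5.56, -2.54 to -1.35 and 2.81 to 4.00 for *Rps4l* minus *Rps4x*, 3.69 to 4.26, 0.79 to 1.35 and 4.91 to 5.20 for *Rpl22l1* minus *Rpl22*, and 0.28 to 0.85, -0.51 to 0.29 and 0.032 to 0.84 for *Rpl7l1* minus *Rpl7*.

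Of 1656 values of single genes, 1540 kept their side of the threshold, among them 18 that passed in neither setting and changed sign, 107 no longer passed, 8 newly passed and 1 called value changed sign. The last was *Rpl13a* in PWD against B6 spermatids, at 0.19 with its brightest probeset that is not of a shared type.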
